A study of Mus musculus with 16 samples.

Results

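The genes described here are the axon guidance ligands and receptors of the mouse: the semaphorins with the plexins and neuropilins, the ephrins with the Eph receptors, the Slits with the Robo receptors, and the netrins with Dcc and the Unc5 receptors. They were chosen by gene symbol, so no measured value of a single gene decided whether it belongs. The group itself was chosen with earlier results of these data known. The annotation holds 69 such genes, and 68 of them were listed among 16250 genes in all; the missing one was Epha1. The listed genes were 20 semaphorins, 11 plexins and neuropilins, 8 ephrins, 13 Eph receptors, 7 Slit and Robo genes and 9 genes of the netrin, Dcc and Unc5 group.

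RNA was sequenced from wild-type fetal mouse brain at embryonic day 18.5, and the series title places the exposure before birth. In hippocampus there were 3 libraries from the enriched environment (EE) and 3 from standard habitation (SH), and in cortex 5 EE and 5 SH libraries. As background, an enriched environment is housing with added space, objects or company. All fetuses were wild type, and the labels give no strain, sex, litter or number of fetuses per library, so separate libraries need not be separate litters, and the p-values refer to the spread among libraries alone.

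Growing axons carry receptors at their tip, the growth cone, and turn toward or away from cells that make the matching ligand. Secreted class 3 semaphorins bind neuropilins, which signal through plexins, while most other semaphorins bind plexins directly. Ephrins stay on the membrane and meet Eph receptors on touching cells, Slits repel axons through Robo receptors, and netrins attract through Dcc or repel through Unc5 receptors. In the fetal forebrain the same molecules also act in cell migration, in vessel growth and in the formation of the commissures that join the hemispheres.

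Values were FPKM, a count of fragments divided by transcript length and by the size of the library, so levels can be set side by side between genes. The libraries held 12267462 to 22289472 reads, and a member gene had 9 to 10763 reads per library with a median of 881. Cortex replicates 4 and 5 were listed in shorter tables than replicates 1 to 3, with 13448 against 15996 genes, and held 64 of the members; Epha2, Ntn5, Plxnb3 and Robo3 were not listed there. Hippocampus tables held 67 members, all but Ntn5. Cortex SH replicate 3 stood apart. It was the lowest of the 6 cortex libraries of replicates 1 to 3 for 52 of 62 tested members (83.9%), against 44.9% of all tested genes, with a median log2 deviation of -0.59 from the mean of the other 5 for the members and -0.08 for all genes. Its deviation ran with transcript length, with a Spearman correlation of -0.75 across 13158 genes and -0.68 across the 62 members, values that share 1 library, and 79.3% of tested genes were shorter than the median member. Main counts and medians, and some of the members that turn on this library, are also given without it.

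Checked against marker genes, all 12 hippocampus markers were higher in hippocampus than in cortex and 7 of 12 cortex markers were lower, 2 being higher (limma, adjusted p of 0.05 or less). Hippocampal EE replicates 1 and 2 and SH replicate 1 held choroid plexus RNA: the 12 choroid plexus markers summed to 5200, 10749 and 17303 FPKM there, against 48.6 to 167 FPKM in the other 3 hippocampal libraries and 28.4 to 306 FPKM in cortex replicates 1 to 3. All 10 interneuron markers and 9 of 10 striatal markers were lower in hippocampus than in cortex, and all 8 Cajal-Retzius cell markers were higher. In tissue pieces such as these, fewer cells of a type and less RNA per cell cannot be told apart. Of the 12 markers of meninges and fibroblasts 6 were lower in hippocampus and none higher, with sums of 63.2 to 411 FPKM there, against 293 to 425 FPKM in cortex replicates 1 to 3. Of the 6 thalamus markers tested, 3 were higher in hippocampus and 2 lower. The 3 higher ones, Lef1, Prox1 and Calb2, are also on the hippocampus or Cajal-Retzius lists and were counted there already. Among cortex replicates 4 and 5, the choroid plexus markers summed to 721 FPKM in EE replicate 4, of which 689 FPKM were Ttr, against 48.4 to 52.3 FPKM in the other 3 libraries. Only 7 of the 12 choroid plexus markers were listed for every library, and an unlisted marker added nothing to a sum. Sums of these replicates are therefore not on the same footing as those of replicates 1 to 3. What these marker lists contribute to the values of the members was not tested, except where values without the choroid plexus libraries are given.

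Across all 16 libraries the most abundant member was Efnb3, the ligand that keeps corticospinal axons on their side of the midline, with a mean of 63.1 FPKM. Plxnb2 followed with 37.1 FPKM and Sema4g with 28.4 FPKM. The most abundant Eph receptor was Epha4 with 24.1 FPKM, the most abundant gene of the Slit and Robo group was Robo1 with 17.3 FPKM, and that of the netrin group was Unc5a with 14.4 FPKM. The order differed by tissue. In hippocampus Efnb3 led with 56.2 FPKM, ahead of Plxnb2 with 54.7, Nrp1 with 45.8, Sema3c with 43.1 and Epha4 with 37.4 FPKM. In cortex replicates 1 to 3 Efnb3 led with 68.4 FPKM, ahead of Plxnd1 with 28.2, Efna3 with 27.03, Plxnb2 with 25.7 and Sema4g with 25.6 FPKM, and the most abundant Eph receptor there was Ephb1 with 19.4 FPKM, Epha4 having 14.4 FPKM. At the bottom were Robo3, with a mean of 0.279 FPKM, and Plxnb3, with 0.315 FPKM, both without cortex replicates 4 and 5, where neither was listed.

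The first comparison asked which guidance genes differ between hippocampus and cortex at this age. It was run over hippocampus and cortex, replicates 1 to 3, which gives 6 libraries on each side, with a term for treatment. Of the 62 members that reached the level for testing, 22 were higher in hippocampus, 13 were lower and 27 did not pass the test (limma on log2(FPKM + 1), Benjamini-Hochberg adjusted p of 0.05 or less over 13158 genes). Over all tested genes, 24.6% were higher and 10.9% lower. The members' median log2 difference was 0.23 and that of all genes 0.09; without cortex SH replicate 3 the members' median was 0.13 and that of all genes 0.08. Receptors and ligands divided unequally in number: 13 of 29 receptor genes were higher and 4 lower, while 9 of 33 ligand genes were higher and 9 lower. The difference between those shares was not tested, and the counts are those for FPKM as deposited.

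**Figure D1:**
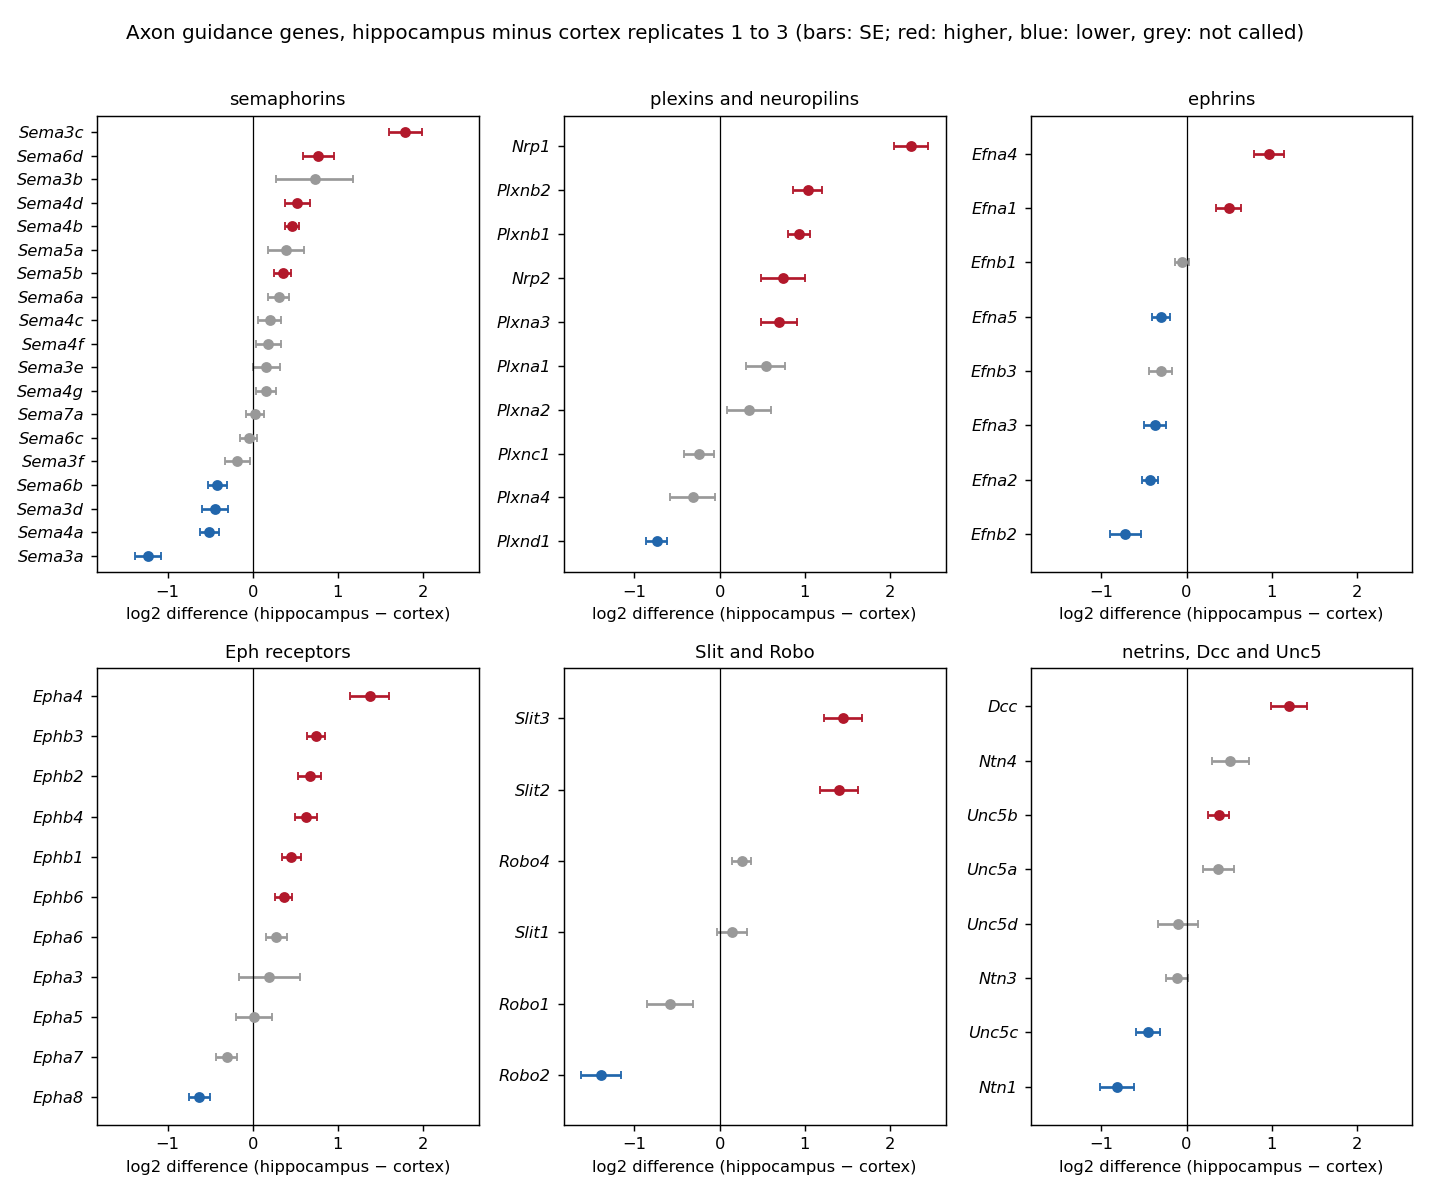
Log2 difference in FPKM between hippocampus and cortex for each of the 62 tested members, by family, with bars for the SE, red for higher, blue for lower and grey for not past an adjusted p of 0.05 (limma, 6 libraries on each side). Nrp1 at 2.25 and Robo2 at -1.40 mark the ends of the range.

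The balance between directions moved with the scaling of the libraries. Scaled by the median of ratios, the median of all genes shifted by -0.12 on the log2 scale, and 17 members were higher and 16 lower, so that 51.5% of the called members were higher, against 62.9% with FPKM as deposited. Over all genes 2158 of 13145 tested were higher and 2232 lower under this scaling, against 3233 and 1428 of 13158 as deposited. The share of higher calls was thus 49.2% against 69.4%. Efna1, Ephb6, Nrp2, Sema5b and Unc5b were no longer called higher under this scaling, while Efnb3, Epha7 and Robo1 were called lower. Ephb6, Nrp2, Unc5b, Epha7 and Robo1 are receptor genes and the others ligand genes, so the receptor and ligand counts above moved with the scaling too. No called member changed sign under this scaling.

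Among the class 3 semaphorins, secreted proteins that repel or attract axons through neuropilins, the 2 clearest differences ran in opposite directions. Sema3c, known for guiding callosal axons, had 31.1, 43.1 and 53.2 FPKM (lowest, median and highest of 6) in hippocampus, against 5.53, 12.96 and 14.5 FPKM in cortex. The groups did not overlap, and the lowest cortex value was that of SH replicate 3. The log2 difference was 1.79 ± 0.20 (SE; limma, adjusted p = 3.7e-05). Sema3a, the founding repellent of the class, had 1.15, 1.62 and 2.14 FPKM in hippocampus, against 2.83, 5.68 and 6.26 FPKM in cortex. Every hippocampal library was below every cortex library, replicates 4 and 5 included, which had 4.25 to 6.25 FPKM. The log2 difference was -1.23 ± 0.15 (SE; limma, adjusted p = 8.4e-05). Sema3d was also lower, with a log2 difference of -0.44 at a level near 1 FPKM, a call that held in 10 of 18 alternative settings. Sema3e, Sema3f and Sema3b were not called. On mm10, Sema3d (12383385 to 12588948), Sema3a (13125414 to 13602565), Sema3e (14025276 to 14256689) and Sema3c (17574281 to 17730268) lie on the plus strand of chromosome 5 in this order, so genes of the same stretch were higher, lower or not called.

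Sema3b ran with the choroid plexus libraries. It had 3.89 and 6.24 FPKM in hippocampus EE replicates 1 and 2 and 10.2 FPKM in SH replicate 1, against 0.51 to 0.928 FPKM in the other 3 hippocampal libraries. Plxnb2 and Plxnb1 were the other 2 members whose values in those 3 libraries all lay above the rest of the hippocampus, and 9 members lay below; over all tested genes, 9.93% lay above and 6.95% below. Epithelial choroid plexus genes were not at zero in the other hippocampal libraries either, with 33.6 to 144 FPKM of Ttr, the thyroxine carrier that is the most abundant of them.

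The transmembrane semaphorins differed less. Sema6d, a ligand of class A plexins, had 11.8, 13.6 and 16.1 FPKM in hippocampus, against 3.28, 8.67 and 9.77 FPKM in cortex, a log2 difference of 0.77. Sema4b was higher by 0.46 and Sema4d, the ligand of Plxnb1, by 0.52. Sema4a was lower, with 2.39, 2.88 and 3.74 FPKM in hippocampus, against 3.86, 4.72 and 5.62 FPKM in cortex, a log2 difference of -0.51. Sema6b was lower, with a log2 difference of -0.42, again with no overlap between the groups. Sema5b was higher by 0.35. The other semaphorins tested did not pass; Sema7a, with a log2 difference of 0.02, and Sema6c, with -0.05, were nearest to 0. In all, 5 semaphorins were higher and 4 lower of 19 tested.

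The neuropilins, the binding receptors for class 3 semaphorins, were both higher in hippocampus. Nrp1 showed the largest log2 difference of the 62 members tested. It had 51.0, 44.8 and 24.6 FPKM in the 3 EE hippocampi and 38.2, 66.7 and 49.4 FPKM in the 3 SH hippocampi, against 8.70 to 9.59 FPKM in the EE cortex and 5.69, 8.73 and 9.004 FPKM in the SH cortex. No cortex library came near the lowest hippocampal one, and cortex replicates 4 and 5 reached 13.7 FPKM at most. The log2 difference was 2.25 ± 0.20 (SE; limma, adjusted p = 7.6e-06), with means of 45.8 ± 14.04 and 8.55 ± 1.45 FPKM (SD, n = 6 each), a ratio of 5.36. Nrp2 was higher by 0.74 (limma, adjusted p = 0.0385), with overlapping groups, and the call held in 10 of 24 alternative settings; under median-of-ratios scaling the adjusted p was 0.0764 (limma).

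Plexins carry the semaphorin signal into the cell. Plxnb2, the most abundant plexin in hippocampus, had 41.9, 48.8 and 76.4 FPKM in hippocampus, against 17.6, 26.9 and 29.5 FPKM in cortex, a log2 difference of 1.03. Plxnb1 had 18.9, 21.0 and 23.5 FPKM in hippocampus, against 6.16, 11.6 and 12.5 FPKM in cortex, a log2 difference of 0.93. Neither overlapped between the groups, and in the 3 hippocampal libraries with little choroid plexus RNA Plxnb2 still had 41.9 to 43.3 FPKM. Plxna3 was higher by 0.70. Plxnd1, a receptor on blood vessels and neurons that also binds Sema3c with neuropilins, was lower, with 14.1, 16.3 and 17.8 FPKM in hippocampus, against 17.4, 30.5 and 33.5 FPKM in cortex. Here the groups met only through cortex SH replicate 3, which held 17.4 FPKM, and the log2 difference was -0.74 ± 0.12 (SE; limma, adjusted p = 7.0e-04). Plxna1, Plxna2, Plxna4 and Plxnc1 did not pass, with log2 differences of 0.54, 0.34, -0.32 and -0.24. Plxna4 and Plxnc1 passed in 3 and 2 of 24 alternative settings. In cortex SH replicate 3 they had 4.39 and 4.29 FPKM. The other cortex libraries of replicates 1 to 3 had 13.1 to 17.8 FPKM of Plxna4 and 9.03 to 11.3 FPKM of Plxnc1.

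Promoter windows of the 4 members that are shown for having the smallest p in each direction and a single start in RefSeq are given 5′ to 3′ from 250 bases before to 50 bases after the RefSeq start (GRCm38.p6), Nrp1 and Sema3c being higher in hippocampus, Sema3a and Plxnd1 lower. Nrp1 lies at chr8:128358823-128359122 on the plus strand, Sema3c at chr5:17574566-17574865 on the plus strand, Sema3a at chr5:13396534-13396833 on the plus strand and Plxnd1 at chr6:115994956-115995255 on the minus strand. Capitals mark GGGCGG, the core of the GC box, or its reverse complement CCGCCC.
Nrp1: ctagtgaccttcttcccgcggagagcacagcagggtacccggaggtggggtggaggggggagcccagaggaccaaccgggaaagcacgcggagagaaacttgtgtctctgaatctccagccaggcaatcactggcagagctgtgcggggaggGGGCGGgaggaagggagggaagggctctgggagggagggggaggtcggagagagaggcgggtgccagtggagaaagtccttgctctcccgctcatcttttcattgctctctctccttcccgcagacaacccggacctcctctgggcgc
Sema3c: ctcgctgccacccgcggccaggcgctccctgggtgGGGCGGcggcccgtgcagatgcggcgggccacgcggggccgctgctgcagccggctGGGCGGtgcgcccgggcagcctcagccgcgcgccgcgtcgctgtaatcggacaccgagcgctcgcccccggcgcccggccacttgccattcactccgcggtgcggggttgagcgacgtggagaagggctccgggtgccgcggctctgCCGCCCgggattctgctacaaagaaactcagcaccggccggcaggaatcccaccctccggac
Sema3a: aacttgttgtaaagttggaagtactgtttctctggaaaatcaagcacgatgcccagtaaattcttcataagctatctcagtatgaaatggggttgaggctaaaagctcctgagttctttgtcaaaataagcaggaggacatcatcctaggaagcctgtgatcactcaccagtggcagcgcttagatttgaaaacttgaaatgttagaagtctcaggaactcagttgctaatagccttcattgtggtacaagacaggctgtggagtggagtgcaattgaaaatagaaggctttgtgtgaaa
Plxnd1: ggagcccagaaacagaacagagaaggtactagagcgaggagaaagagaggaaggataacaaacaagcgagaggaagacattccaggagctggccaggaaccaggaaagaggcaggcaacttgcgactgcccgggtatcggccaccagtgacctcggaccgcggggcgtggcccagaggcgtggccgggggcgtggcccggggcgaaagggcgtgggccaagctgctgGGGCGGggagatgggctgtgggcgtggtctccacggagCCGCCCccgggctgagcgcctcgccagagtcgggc

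The Nrp1 and Sema3c windows begin shortly after the starts of their genes in GENCODE, at 128358604 and 17574281. The Sema3a window, from 13396534, lies far inside its gene, which spans 13125414 to 13602565. Its composition need not be that of the sequence at the GENCODE start of Sema3a, which was not read. The sequence and composition of these windows hold for the RefSeq start only. The 4 windows differ in base composition. GC content was 64% in Nrp1, 75.7% in Sema3c, 41.3% in Sema3a and 67% in Plxnd1, and Sema3a held 2 CpG pairs where Sema3c held 42. GGGCGG occurred 1 time in Nrp1, 3 times in Sema3c, 2 times in Plxnd1 and not in Sema3a. Over both strands it was found in 35.7% of 32841 promoter windows and in 70.3% of the 74 windows of 58 members. The member windows had a median GC content of 64.3% and a median of 19.5 CpG pairs, against 52.7% and 7 over all windows. What this composition adds to the motif share was not tested. Among members called higher 20 of 27 windows held it, and among those called lower 12 of 19, so the motif did not divide the directions in these counts. The motifs GCGNGGGCG, TAATTA and ATCAAAG, searched on both strands, occurred in none of the 4 windows; 5.55%, 5.29% and 3.73% of all windows held them, and 13 (17.6%), 3 (4.05%) and 1 (1.35%) of the 74 member windows.

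With FPKM as deposited, the ephrins were the 1 family with more members lower than higher: 4 were lower and 2 higher of 8 tested. Under median-of-ratios scaling 5 were lower and 1 higher, and the netrin group also had more lower than higher, with 2 and 1 of 8. Efna4 was the higher one with the larger change, with 8.04, 11.7 and 14.1 FPKM in hippocampus, against 3.44, 5.09 and 8.87 FPKM in cortex, a log2 difference of 0.97. The overlap came from cortex SH replicate 3, at 8.87 FPKM. Efna1 was higher by 0.49, a call lost under median-of-ratios scaling. Efnb2, a ligand of EphB and EphA4 receptors that also marks arteries, had 7.11, 10.01 and 13.6 FPKM in hippocampus, against 9.95, 18.01 and 20.2 FPKM in cortex, a log2 difference of -0.72, and the groups met only through cortex SH replicate 3. Efna2, Efna3 and Efna5, the membrane-anchored ligands that form gradients over the cortex, were lower, with log2 differences of -0.43, -0.37 and -0.30. Of these, Efna3 stayed past the threshold in 11 of 24 alternative settings and Efna5 in 8 of 23. Efnb3 had 40.3, 55.3 and 74.7 FPKM in hippocampus, against 59.7, 67.3 and 76.1 FPKM in cortex, and was not called.

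All 5 EphB receptors measured were higher in hippocampus. Ephb3 had 5.74, 7.08 and 8.66 FPKM in hippocampus, against 3.06, 3.96 and 4.38 FPKM in cortex, with no overlap and a log2 difference of 0.74 ± 0.11 (SE; limma, adjusted p = 2.6e-04). Ephb2 had 14.3, 17.7 and 22.8 FPKM in hippocampus, against 7.35, 11.1 and 13.7 FPKM in cortex, a log2 difference of 0.67. Ephb4, best known in veins, was higher by 0.63, Ephb1 by 0.45 and Ephb6, which lacks kinase activity, by 0.36. The Ephb6 call was lost under median-of-ratios scaling.

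The EphA receptors were mixed, with 1 higher, 1 lower and 4 not called. Epha4, which binds ephrins of both classes, had 24.9, 38.5 and 44.0 FPKM in hippocampus, against 5.60, 15.6 and 17.9 FPKM in cortex, and the groups did not overlap. Its log2 difference was 1.37 ± 0.23 (SE; limma, adjusted p = 7.3e-04). Epha8 was lower, with 2.84, 3.23 and 4.63 FPKM in hippocampus, against 4.17, 6.15 and 6.90 FPKM in cortex, a log2 difference of -0.63, and again only cortex SH replicate 3 reached into the hippocampal range. Epha7 differed by -0.31 and missed the threshold (limma, adjusted p = 0.0733). Epha10 was under the level for testing, with 0.151 to 0.552 FPKM in hippocampus, against 0.926 to 1.65 FPKM in cortex. It did not overlap between the tissues, and was called lower in the 4 alternative settings in which it was tested. Epha3 varied widely in both tissues, with 5.30 to 17.8 FPKM in hippocampus and 1.88 to 11.1 FPKM in cortex.

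Slits and Robo receptors moved in different directions. Slit2, a secreted repellent, had 5.41, 10.8 and 7.72 FPKM in the EE hippocampi and 12.6, 6.33 and 6.01 FPKM in the SH hippocampi, against 2.79 to 2.93 FPKM in the EE cortex and 0.851, 2.47 and 2.62 FPKM in the SH cortex. All hippocampal libraries were above all cortex libraries. The log2 difference was 1.40 ± 0.22 (SE; limma, adjusted p = 4.9e-04). Slit3 had 3.48, 7.03 and 10.4 FPKM in hippocampus, against 0.915, 1.87 and 2.11 FPKM in cortex, a log2 difference of 1.45, again without overlap. Slit1 was not called, with medians of 7.16 FPKM in hippocampus and 7.90 FPKM in cortex.

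Robo2, a receptor for Slits, was lower in hippocampus. It had 4.11, 5.48 and 7.14 FPKM in the EE hippocampi and 5.42, 5.15 and 7.51 FPKM in the SH hippocampi, against 19.0 to 22.4 FPKM in the EE cortex and 6.81, 16.9 and 19.0 FPKM in the SH cortex. Only cortex SH replicate 3, at 6.81 FPKM, fell within the hippocampal range, and cortex replicates 4 and 5 had 13.8 to 24.7 FPKM. The log2 difference was -1.40 ± 0.23 (SE; limma, adjusted p = 6.7e-04). Robo1 had 7.31, 12.2 and 13.6 FPKM in hippocampus, against 5.90, 21.0 and 23.9 FPKM in cortex, a log2 difference of -0.59 (limma, adjusted p = 0.108). Its cortex range also reached so low only through SH replicate 3, the next lowest cortex library holding 19.0 FPKM; without that replicate Robo1 was called lower, with a log2 difference of -0.87 (limma, adjusted p = 0.00039). Robo4, an endothelial receptor, was not called, and Robo3 was under the level for testing.

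**Figure D2:**
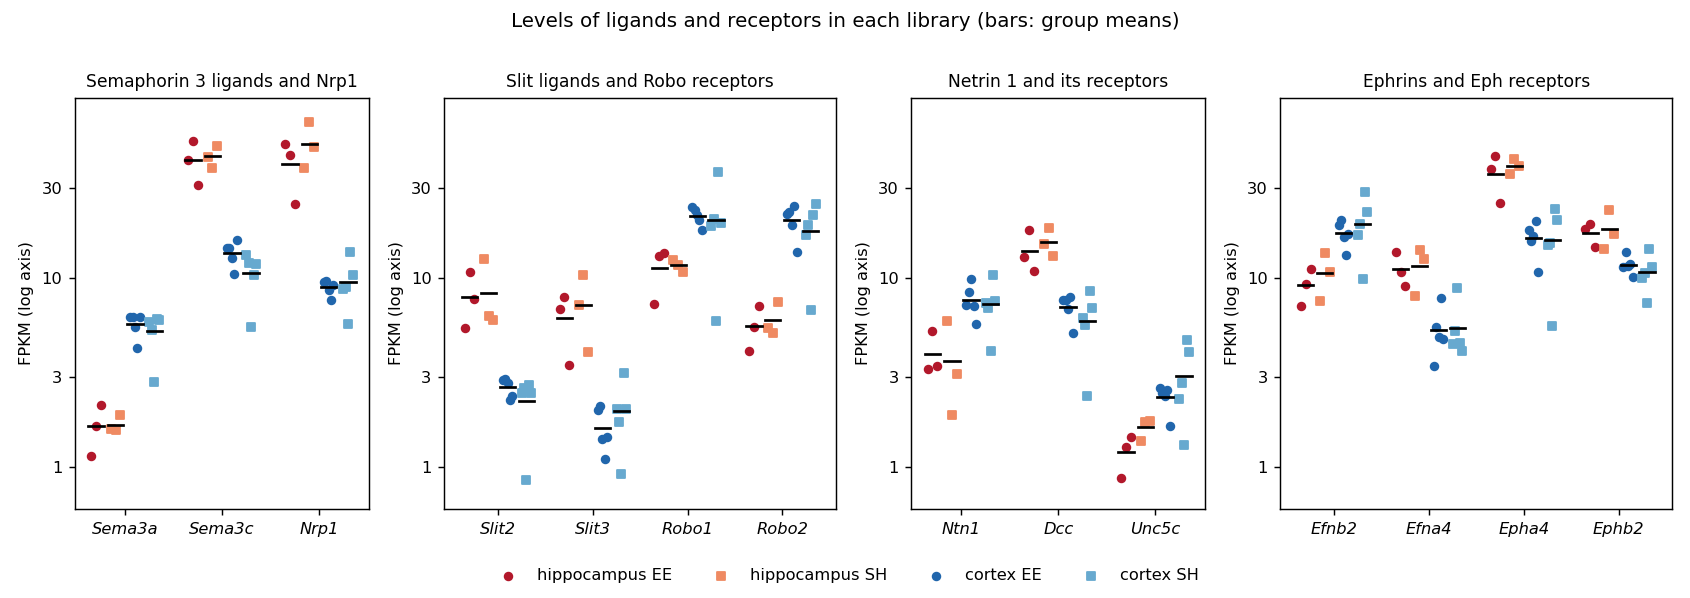
FPKM in every library, on a log axis, of 14 ligands and receptors, with hippocampus EE, hippocampus SH, cortex EE and cortex SH from left to right for each gene and bars for the group means. Nrp1, Sema3c and Slit2 lie higher in all 6 hippocampal libraries than in any cortex library, and Sema3a lies lower in all 6.

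In the netrin group, Dcc, the attractive netrin receptor, had 10.9, 14.1 and 18.5 FPKM in hippocampus, against 2.37, 6.51 and 7.67 FPKM in cortex. The groups did not overlap, and cortex replicates 4 and 5 reached 8.54 FPKM at most. The log2 difference was 1.20 ± 0.21 (SE; limma, adjusted p = 9.4e-04). Ntn1, the classical netrin, was lower, with 1.89, 3.36 and 5.90 FPKM in hippocampus, against 4.14, 7.29 and 9.88 FPKM in cortex. The groups met only through cortex SH replicate 3, and the log2 difference was -0.81 ± 0.20 (SE; limma, adjusted p = 0.0081). Of the repulsive Unc5 receptors, Unc5c was lower, with a log2 difference of -0.45, and Unc5b, also an endothelial receptor, was higher by 0.38, the second of these calls holding in 12 of 23 alternative settings and being lost under median-of-ratios scaling. Ntn4, Ntn3, Unc5a and Unc5d were not called.

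Of the 62 members, 15 had all 6 hippocampal libraries above all 6 cortex libraries and 3 had them all below, where 14.9% and 5.5% of all tested genes did so. Cortex replicates 4 and 5 took no part in this fit. Of the 22 members called higher, 12 had every hippocampal library above all 4 of those cortex libraries as well, and of the 13 called lower, 7 had every one below; over all genes called, the shares were 42.7% and 47.8%. Dcc, Epha4, Ephb3, Nrp1, Plxnb1, Sema3c, Slit2 and Slit3 passed the test under every alternative setting in which they were tested. Without cortex SH replicate 3, 21 members were higher and 16 lower, where 28.5% and 15.2% of all tested genes were. Without the 3 choroid plexus libraries 12 were higher and 6 lower, against 10.4% and 5.99% of all genes, and with both exclusions 21 and 16, against 19.0% and 12%. In EE libraries alone 20 were higher and 17 lower, against 24.1% and 12.6% of all genes, and in SH libraries alone 8 and 0, against 2.28% and 1.65%.

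Genes that work beside these ligands and receptors were read from a list of 53 partners, among them co-receptors, adhesion molecules and enzymes of the growth cone. In hippocampus 16 of the 53 were higher than in cortex and 10 were lower (limma, adjusted p of 0.05 or less), with a median log2 difference of 0.0044. Over all tested genes 24.6% were higher and 10.9% lower, with a median of 0.09. Flrt1, an adhesion protein of the family that binds Unc5 receptors, had 4.11, 6.76 and 8.45 FPKM in hippocampus, against 1.37, 1.88 and 2.42 FPKM in cortex. Draxin, a secreted ligand that binds Dcc, had 40.3, 50.6 and 60.4 FPKM in hippocampus, against 11.6, 23.1 and 24.5 FPKM in cortex. Cntn2, an axonal adhesion molecule, had 54.2, 71.2 and 81.5 FPKM in hippocampus, against 15.4, 33.8 and 38.0 FPKM in cortex. These 3 were the clearest higher partners, and none overlapped between tissues. Ngef, an exchange factor that acts downstream of EphA receptors, had 5.05, 6.62 and 8.86 FPKM in hippocampus, against 21.1, 26.3 and 30.5 FPKM in cortex, a log2 difference of -1.79. Cxcl14 and Rnd3 were lower, with log2 differences of -0.90 and -0.62, neither with any overlap.

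The second comparison asked whether the enriched environment changed these genes in cortex. None of the 63 members tested passed the threshold over the 10 cortex libraries (limma, with replicates 1 to 3 and replicates 4 and 5 as separate sets in the model, adjusted p of 0.05 or less), and none had an unadjusted p under 0.05. Of all 12539 genes tested, 0.00798% passed and 7.45% had an unadjusted p under 0.05. Run by voom on recovered reads, no member passed and 2 had an unadjusted p under 0.05. That count was 2 also with a replicate block and with median-of-ratios scaling, and 0 to 6 when 1 library at a time was left out, with 4 without EE replicate 5. The 6 without cortex SH replicate 3 were Ephb4, Plxna2, Sema4c, Sema4d, Sema6c and Unc5c, where 11.3% of all genes had such a p, and none passed. The fitted log2 differences of the members ran from -0.35 to 0.38, and for every member the EE and SH libraries overlapped. The share of all tested genes that overlapped was not counted.

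The smallest p belonged to Ephb3. It had 3.06, 4.29, 3.90, 3.51 and 2.95 FPKM in EE, against 3.74, 4.01, 4.38, 4.97 and 4.63 FPKM in SH, a log2 difference of -0.24 ± 0.11 (SE; limma, adjusted p = 0.671). Only 1 EE library was above the SH mean of its own set. Ephb4 had 3.40, 4.21, 3.26, 3.16 and 3.89 FPKM in EE, against 4.54, 4.40, 3.93, 4.003 and 4.32 FPKM in SH, with no EE library above the SH mean of its set. Sema3b differed by -0.22. On the other side, Sema6c had 22.4, 23.7, 24.1, 29.2 and 21.6 FPKM in EE, against 19.5, 21.98, 21.5, 21.9 and 18.3 FPKM in SH, and all 5 EE libraries were above the SH mean of their set. Sema3f differed by 0.30 and Ephb6 by 0.20, each with all 5 EE libraries above the SH mean of their set. Adjusted p over these 6 genes was 0.671 to 0.701 (limma).

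Fitted differences were positive for 40 of the 63 members, with a median of 0.11, against -0.02 for all genes. That balance rested on cortex SH replicate 3: without it 28 members were positive and 35 negative, with a median of -0.03. Within replicates 1 to 3 the median was 0.24, and within replicates 4 and 5 it was -0.17. By family, the medians with all libraries were 0.20 for plexins and neuropilins, 0.21 for the netrin group and -0.04 for ephrins; without cortex SH replicate 3 they were 0.015, 0.046 and -0.016.

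**Figure D3:**
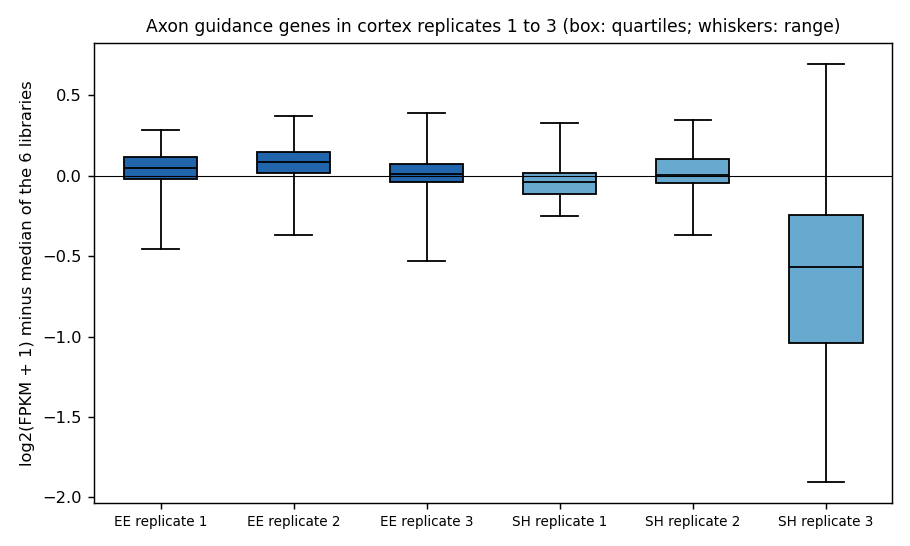
Spread over the 62 members of log2(FPKM + 1) minus each gene's median in the 6 cortex libraries of replicates 1 to 3, EE to the left of SH, with boxes for quartiles and whiskers for the range. The box of SH replicate 3 lies below those of the other 5 libraries, and 52 of 62 members were at their lowest there.

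Within cortex replicates 4 and 5 alone, with 2 EE and 2 SH libraries, 5 of 63 members were lower in EE, where 1.79% of all tested genes were (limma, adjusted p of 0.05 or less, with the spread pooled across genes). Plxna2, a receptor for class 6 semaphorins, had 17.5 and 17.3 FPKM in EE, against 48.0 and 26.1 FPKM in SH, a log2 difference of -0.98 (limma, adjusted p = 5.4e-04). Sema4d had 3.29 and 4.50 FPKM in EE, against 9.24 and 7.84 FPKM in SH, a log2 difference of -0.97 (limma, adjusted p = 0.0032). Unc5c differed by -0.81, Epha3 by -0.74 and Efnb2 by -0.71. The same genes differed by 0.32 for Plxna2, 0.07 for Sema4d, 0.19 for Unc5c, 0.62 for Epha3 and 0.30 for Efnb2 within replicates 1 to 3, where none was called. Each of these 5 genes had its lowest value of that set in cortex SH replicate 3. Without that library, over the remaining cortex libraries of both sets, they differed by -0.52, -0.49, -0.38, -0.35 and -0.30 in the same order. None was called in that fit. EE replicate 4 is the library with the higher choroid plexus sum of 721 FPKM. Without it, 6 of 61 members were lower in EE, where 3.8% of all tested genes were, on 1 EE and 2 SH libraries with the lone library assumed to vary like the others. Plxna2, Sema4d and Unc5c were again called, at -0.99, -0.79 and -1.02, Efnb2 and Epha3 were not (limma, adjusted p = 0.0662 and 0.693), and Epha4, Robo2 and Sema4c were called as well. Whether the sets differ was not tested gene by gene, and set, sequencing run and litter cannot be told apart.

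The third comparison asked the same of hippocampus, with 3 EE and 3 SH libraries. No member of 61 tested passed the threshold (limma, adjusted p of 0.05 or less), nor did any of 13344 genes, 0.0%. An unadjusted p under 0.05 was found for 2 members, against 3.77% of all genes, and for none by voom on recovered reads. These 2 were Plxna2 and Sema4d, both lower in EE. Plxna2 had 17.3, 23.1 and 15.8 FPKM in EE, against 20.0, 33.7 and 29.5 FPKM in SH, a log2 difference of -0.53 ± 0.21 (SE). Sema4d had 6.38, 6.98 and 5.11 FPKM in EE, against 6.88, 10.1 and 8.73 FPKM in SH, a log2 difference of -0.41 ± 0.17 (SE). Each overlapped through 1 library only. Sema4b, with 10.5, 10.1 and 9.77 FPKM in EE and 10.7, 11.6 and 12.6 FPKM in SH, was the 1 member without overlap, at a log2 difference of -0.18 (limma, unadjusted p = 0.112). How many of all tested genes had no overlap between EE and SH was not counted, so this separation has no background to be read against.

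The members nearest the threshold on the higher side were farther from it. Sema6c differed by 0.16, Plxna3 by 0.19 and Sema4a by 0.12, all with overlapping groups. Across the members 21 differences were positive and 40 negative, with a median of -0.04 and -0.01 for all genes. That balance moved with single libraries: 13 were positive and 48 negative without SH replicate 1, with a median of -0.12, and 16 and 45 without EE replicate 2, with -0.098, but 30 and 31 without EE replicate 3, with -0.014, and 29 and 32 without EE replicate 1, with -0.0064. Without both libraries of the highest Ttr (EE replicate 2 and SH replicate 1) 15 were positive and 46 negative, with a median of -0.16. The Eph receptors had 10 of 11 differences below 0, from -0.44 to 0.12, and none passed. In this tissue choroid plexus RNA was high in EE replicates 1 and 2 but, among the SH libraries, only in replicate 1. What it adds to the EE differences was not tested.

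**Figure D4:**
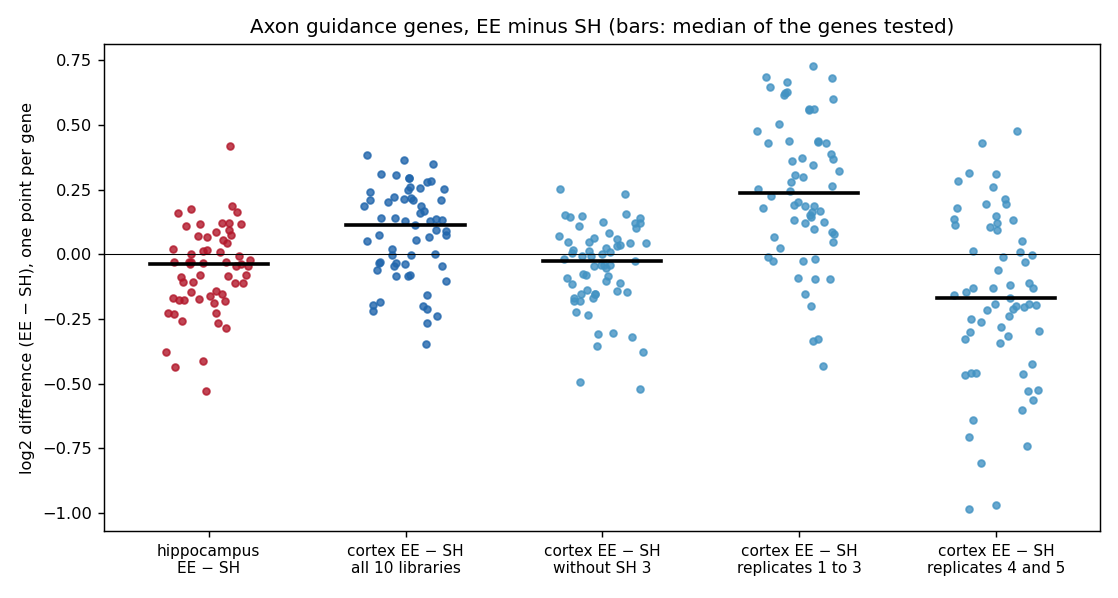
Log2 difference between EE and SH, 1 point per tested member and bars for the median, in hippocampus, in all 10 cortex libraries, and in cortex without SH replicate 3, within replicates 1 to 3 and within replicates 4 and 5. With all libraries of a tissue, no member passed an adjusted p of 0.05 in either tissue, and the medians were -0.04 in hippocampus and 0.11 in cortex.

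The last comparison tested whether the EE difference itself differed between hippocampus and cortex, over replicates 1 to 3. No member of 62 passed (limma interaction term, adjusted p of 0.05 or less), nor did any of 13158 genes, 0.0%, and no member had an unadjusted p under 0.05, where 7.52% of all genes did. By voom on recovered reads 3 members had an unadjusted p under 0.05 and none passed. That count was 10 with a replicate block, where 12.07% of all genes had such a p. Leaving out 1 library at a time gave 0 to 15, the highest being 15 without cortex SH replicate 2, where 17.6% of all genes did, then 9 without cortex SH replicate 1 and 5 without hippocampal SH replicate 1; no member passed in any of these. The smallest p values were those of Dcc, Sema5a and Efna1 (limma, adjusted p = 0.495 each). Dcc had 12.9, 17.9 and 10.9 FPKM in EE hippocampus and 15.2, 18.5 and 13.1 FPKM in SH hippocampus, and in cortex 7.67, 7.61 and 6.85 FPKM in EE and 6.17, 5.62 and 2.37 FPKM in SH. Its interaction was -0.79 on the log2 scale. Sema5a had the same value of -0.79, and Efna1 had 0.54; without cortex SH replicate 3 the values were -0.45, -0.48 and 0.38 (limma, adjusted p = 0.773, 0.793 and 0.795). The median interaction of the members was -0.33, against -0.0046 for all genes, and it was -0.11 without cortex SH replicate 3.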

How the data were processed

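RNA-seq of 16 libraries was used: hippocampus EE and SH, replicates 1 to 3, and cortex EE and SH, replicates 1 to 5. The authors deposited FPKM by gene symbol, in a separate table for each library. Tools named in the submitters' processing notes are StringTie 1.3.4d, HISAT2 2.0.4 and cutadapt 1.9, besides DESeq2 and edgeR, with mm10 as the build and no roles; the annotation and the filter on listed genes are not given in the sources used here. A gene not listed was treated as missing. Whole reads were recovered from the FPKM steps for 100.0% of genes at a tolerance of 0.003 reads; they cover listed genes only.

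Testing was two-sided, by limma 3.58.1 (R 4.3.3; lmFit, eBayes with trend) on log2(FPKM + 1), which understates the change of low genes, keeping genes that every library of a fit lists and whose mean FPKM is at least 1. Benjamini-Hochberg adjustment ran over all tested genes, with 0.05 as the threshold. The scripts were tested on simulated data. The tissue comparison took replicates 1 to 3 of both tissues and held treatment as a covariate; cortex EE against SH held the set (replicates 1 to 3, or 4 and 5) as a covariate, hippocampus EE against SH had none, and the EE effect between tissues by interaction.

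Members, partners and marker lists were chosen with earlier results of these data known. Values were given for up to 3 higher and 3 lower members per family with the smallest p among those called between tissues, the 3 higher and 3 lower with the smallest p for EE against SH, the 3 of smallest p for the interaction and the most abundant of each family; others are named by their counts or differences. The cortex genes called within replicates 4 and 5, and Sema3b, Epha10, Epha3 and Robo1 in the tissue comparison, were singled out after their values were seen. Positions were read from GENCODE on mm10 and promoter windows from RefSeq on GRCm38.p6. Alternatives were median-of-ratios scaling, no filter on level, a minimum mean FPKM of 5, a pseudocount of 0.1, robust limma, a replicate block, EE or SH libraries alone, all 16 libraries, single sets of cortex replicates and leaving out each library; voom on recovered reads and leaving out the choroid plexus libraries or, within replicates 4 and 5, cortex EE replicate 4 were added after seeing the data.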

Additional observations from a re-analysis of the deposited data

Results flagged for a closer look

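In groups of 5 cortex libraries, the highest or lowest value was set against the nearest of the others, relative to the group's range (critical value 0.71 for 5 samples). Of 78 groups tested over 39 genes, 7 stood apart, where chance gives about 1 in 20. In cortex SH replicate 3, which was low for most members, Slit2 stood apart at 0.851 FPKM, below 2.47 to 2.72 FPKM in the other SH libraries, and Sema3a at 2.83 FPKM, below 5.32 to 6.08 FPKM. Efna4 stood apart there in the other direction, at 8.87 FPKM, above 4.12 to 5.28 FPKM. In cortex EE replicate 4, Plxna3 was high at 26.4 FPKM, above 16.2 to 17.1 FPKM, and Sema3f at 10.3 FPKM, above 6.63 to 7.18 FPKM. In cortex EE replicate 5, Plxnd1 was low at 22.5 FPKM, below 30.7 to 33.5 FPKM, and Unc5c at 1.65 FPKM, below 2.38 to 2.62 FPKM.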

How the results depend on the processing

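Between tissues, 22 members were higher in hippocampus and 13 lower. SH libraries alone gave 8 and 0, and leaving out the 3 choroid plexus libraries gave 12 and 6, of which 12 and 5 were among those of the full comparison. A mean FPKM of at least 5 gave 7 lower of 47 tested, where 986 of all 8974 tested genes were. Leaving out 1 library at a time gave 20 to 23 higher and 9 to 16 lower, where 2514 to 3759 and 1148 to 2001 of all genes were. It gave 0 members called in either direction in each EE comparison. Voom on recovered reads gave 17 higher and 15 lower, where 2160 and 2225 of all 13158 tested genes were. In cortex, replicates 4 and 5 alone gave 5 members lower in EE, and 6 without EE replicate 4. Apart from these counts, single genes and the medians over the members were followed across the settings. Of these, 1127 values kept their side of the threshold or their size, 104 lost a call and 11 gained one. Another 20, all medians over the members, moved, and no called value changed sign. The cause was not tested. Settings that drop libraries rest on fewer libraries.

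The labels do not say whether equal replicate numbers pair the samples. Between libraries of equal number, EE and SH deviations correlated at 0.089 to 0.406 within cortex and at -0.556 to 0.364 within hippocampus. Hippocampus and cortex deviations of the same treatment and number correlated at -0.029 to 0.273. With the replicate number as a block, 23 members were higher and 12 lower between tissues, where 3023 and 1334 of all 13158 tested genes were. No member was called in any EE comparison with this block.

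Read counts limit the lowest members, which had as few as 9 reads in a library. The EE comparisons rest on 3 to 5 libraries a group, and differences of the size seen here could not be told from the spread between libraries.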
